A study of Mus musculus with 4 samples.

Results

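The enzymes described here break down threonine and glycine, make serine, and pass single carbon units to folate. The 10 genes Tdh, Gcat, Gldc, Shmt1, Shmt2, Mthfd1, Mthfd2, Phgdh, Psat1 and Psph were taken by name, and a gene's value was that of the probe sets that the platform annotation gives to it alone. Of these 10 genes 9 had such a probe set, 1 each, among 19938 genes measured. No probe set in the annotation used here carried Tdh, the threonine dehydrogenase gene, so Tdh was not analysed here. Each of 4 cell samples was hybridised to 1 array. They were fibroblasts of the mouse embryo (MEF), 2 lines of reprogrammed, induced pluripotent stem cells (iPS 178B5 and iPS 492B4), and v6.5, a line of embryonic stem (ES) cells. In genetic background, fibroblasts and iPS lines were a mixture of DBA/2, C57BL/6 and 129S4, whereas v6.5 was an F1 of 129 with C57BL/6. The MEF medium held 10% serum. The 3 pluripotent lines grew in 15% serum on SNL feeder fibroblasts arrested with mitomycin C, in a medium that also contained non-essential amino acids and 2-mercaptoethanol. Such amino acid mixtures contain glycine and serine, which are substrates of these enzymes, and medium and cell type cannot be told apart in this design. The labels do not say how the iPS lines were made.

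In mouse ES cells threonine is a known fuel. Threonine dehydrogenase and the product of Gcat turn it into glycine and acetyl-CoA, and the mitochondrial glycine cleavage system splits glycine and loads its carbon onto tetrahydrofolate. Serine gives the same carbon through the hydroxymethyltransferases of cytosol (Shmt1) and mitochondria (Shmt2), and the Mthfd enzymes interconvert the folate forms that feed purine, thymidylate and methionine synthesis. Serine itself is made from a glycolytic intermediate by the products of Phgdh, Psat1 and Psph, acting in that order.

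Of the 9 measured genes 4 rose in the pluripotent lines against MEF and 0 fell, in a limma fit in which 7.90% of all genes were called higher and 9.71% lower (17.6% in all). Gldc, Shmt1, Mthfd1 and Gcat rose by 5.03, 2.60, 1.92 and 1.40 log2. The genes for mitochondrial one-carbon transfer (Shmt2 and Mthfd2) and for serine synthesis (Phgdh, Psat1 and Psph) were not called and stood between 0.022 and 0.51 log2. A gene was called at a Benjamini-Hochberg adjusted p under 0.05, over all genes, and a difference of at least 1 log2. In counts of genes, rose and fell stand for such calls. Without iPS 178B5 the number that rose was 2, Gldc and Shmt1. All 4 were at least 1 log2 above MEF in each of the 3 lines, as were 7.03% of all genes. The median over the 9 genes was 0.51 log2, beside -0.10 log2 over all genes, and with the arrays centred on reference genes these medians were 0.20 and -0.41 log2. By line this median was 0.48 log2 in iPS 178B5, 0.55 log2 in iPS 492B4 and 0.49 log2 in ES. Every difference from MEF shares the single MEF array, which was assumed to vary like the lines.

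**Figure D1:**
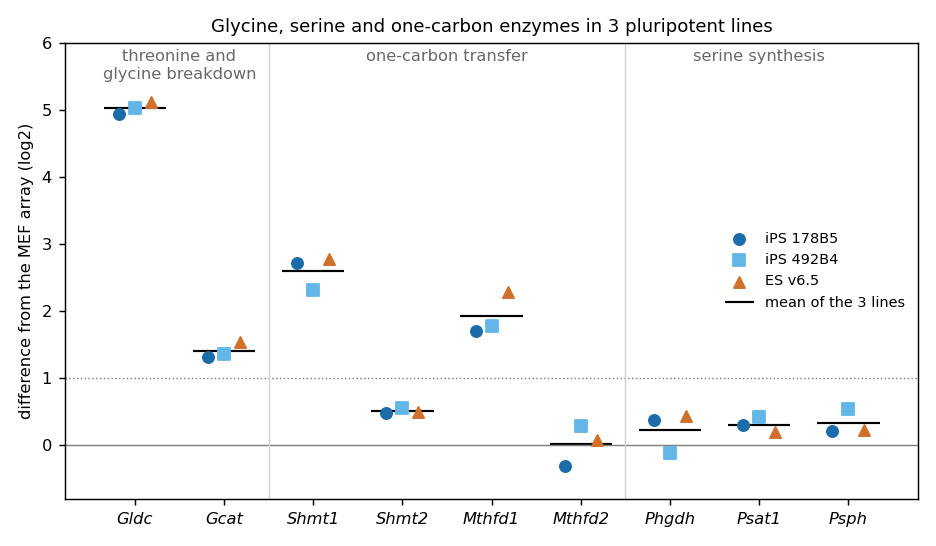
Difference of each pluripotent line from the MEF array (log2) for the 9 measured genes, in order of role; circles are iPS 178B5, squares iPS 492B4, triangles ES v6.5, black bars the mean of the 3 lines, and the dotted line the fold minimum of 1 log2. Gldc, Gcat, Shmt1 and Mthfd1 lie above 1 log2 in all 3 lines, and the other 5 genes lie below it in all 3.

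In the deposited values each probe set is centred to a median of 0 across the arrays. They therefore give differences between arrays and no level of expression, and they allow no comparison of abundance between genes or with background. The log base was taken as 2. Over all genes the lines differed from MEF by a median of -0.11 log2 in iPS 178B5, -0.13 log2 in iPS 492B4 and -0.065 log2 in ES. Centring the arrays on 12 reference genes instead lowered every difference of a line from MEF, by an amount common to all genes. Their mean was -0.26 log2 on MEF, 0.053 log2 on iPS 178B5, 0.097 log2 on iPS 492B4 and -0.015 log2 on ES. The amount therefore differed between lines. The reference genes were not constant: 10 of the 12 were above MEF over the 3 lines, with a median of 0.18 log2 and Tbp highest at 1.02 log2. With this centring the median of all genes fell by 0.31 log2. All 4 rises were called under that scaling, where 1131 genes were higher and 3137 lower, against 1576 and 1936 as deposited. All 9 pluripotency markers measured rose in the lines, with Pou5f1 at 6.30 log2 and Nanog at 6.00 log2. All 10 fibroblast markers were below MEF by value, between -6.165 and -1.162 log2, and 6 were called lower. Among these 6 was the collagen gene Col1a1 at -4.61 log2, whose call was lost without iPS 178B5 (adjusted p = 0.0923). The median of the fibroblast markers was -3.94 log2 in iPS 178B5, -4.34 log2 in iPS 492B4 and -2.70 log2 in ES. The number called lower was 1 without iPS 178B5, 4 without iPS 492B4, 10 without ES and 9 with reference centring. Array values cannot separate feeder RNA or the number of cells of a type from RNA per cell, and the part of feeder cells in these differences was not tested.

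Gldc encodes the glycine decarboxylase of the glycine cleavage system, the subunit that removes the carboxyl group. Its deposited value was -4.98 log2 on the MEF array, -0.046 log2 on iPS 178B5, 0.046 log2 on iPS 492B4 and 0.13 log2 on ES. The 3 lines lay within 0.17 log2 of each other and far above MEF. The difference was 5.03 ± 0.09 log2 (SD, n = 3 lines; standard error of the fit 0.15, adjusted p = 0.00288), or 32.6-fold. Gldc took rank 25 among 19938 genes ordered by their rise, and 25 genes had a mean difference of at least 5 log2. It was called under every array centring, probe set rule and moderation tried, and with any 1 line left out.

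**Figure D2:**
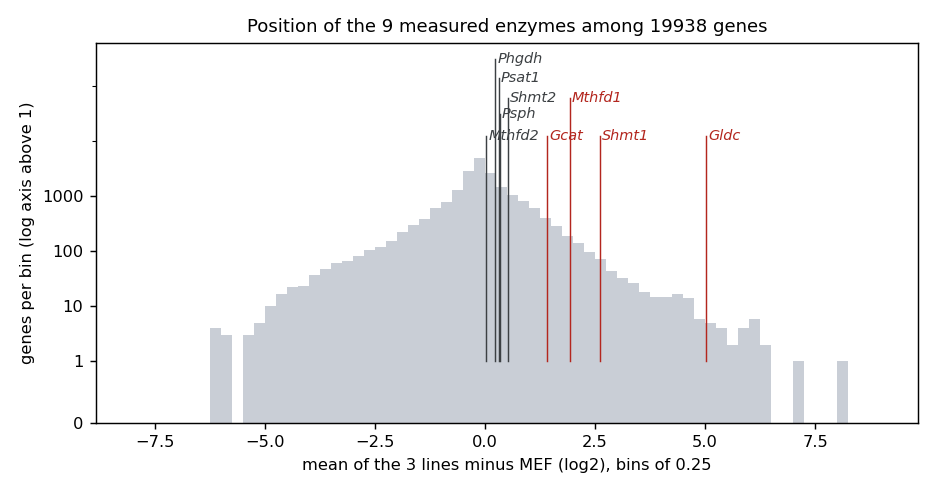
Number of genes (vertical axis, logarithmic above 1) in bins of 0.25 log2 of the mean difference between the 3 pluripotent lines and MEF (horizontal axis), with the 9 measured enzymes marked, red where called and dark grey where not. Gldc at 5.03 log2 lies in the far right tail, Shmt1, Mthfd1 and Gcat in the right shoulder, and the 5 others between 0 and 1 log2.

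The glycine cleavage system has 3 further subunits, and 1 of their genes was called, beside 17.6% of all genes. Amt, the aminomethyltransferase that hands the carbon to folate, rose by 4.24 ± 0.26 log2 (SD, n = 3; adjusted p = 0.00548), with 4.01 log2 in iPS 178B5, 4.19 log2 in iPS 492B4 and 4.52 log2 in ES. Gcsh, the lipoyl carrier protein, stood at 0.55 log2 (adjusted p = 0.195), and Dld, the lipoamide dehydrogenase that also serves pyruvate dehydrogenase, at 0.30 log2 (adjusted p = 0.21). Gldc and Amt are thus the pair of the 4 subunit genes that were called, and neither call was lost when a line was left out.

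Gcat encodes glycine C-acetyltransferase, which makes glycine and acetyl-CoA from the product of threonine dehydrogenase. Its value was -1.34 log2 on MEF, -0.024 log2 on iPS 178B5, 0.024 log2 on iPS 492B4 and 0.20 log2 on ES. All 3 lines were above MEF, by 1.31, 1.36 and 1.53 log2. The mean difference was 1.40 ± 0.12 log2 (SD, n = 3; standard error 0.16, adjusted p = 0.01), or 2.64-fold. Without iPS 178B5 it was 1.445 log2 and was not called (adjusted p = 0.0525). Without that line 1357 genes were called in all, against 3512 with it.

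The upstream promoter sequences of Gldc and Gcat are given to show the DNA next to the start of these genes, both called higher. They are the 250 bases before the annotated start, from RefSeq in build GRCm38.p6, written 5′ to 3′ on the gene's own strand. Capitals mark CCGCCC on either strand, the core of a GC box, the element that Sp1-family factors bind.

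Gldc, chr19:30175442-30175691, minus strand: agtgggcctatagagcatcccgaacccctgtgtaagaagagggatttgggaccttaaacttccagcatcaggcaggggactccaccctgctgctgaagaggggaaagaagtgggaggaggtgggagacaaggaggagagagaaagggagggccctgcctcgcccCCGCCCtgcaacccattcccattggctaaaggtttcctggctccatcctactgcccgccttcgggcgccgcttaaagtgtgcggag

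Gcat, chr15:79030624-79030873, plus strand: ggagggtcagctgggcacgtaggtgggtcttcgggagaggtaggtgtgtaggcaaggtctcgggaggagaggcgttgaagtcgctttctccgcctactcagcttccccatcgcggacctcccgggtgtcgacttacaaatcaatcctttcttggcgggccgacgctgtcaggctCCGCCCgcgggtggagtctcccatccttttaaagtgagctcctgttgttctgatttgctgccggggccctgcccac

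Windows of 300 bases, from 250 before to 50 after the start, were searched for 3 motifs on both strands. None of the 3 lies within another. CCGCCC was found in 6 of the 10 windows of the 9 genes, and in 35.7% of 32851 windows of all genes. These 6 belonged to Gcat, Gldc, Shmt1, Mthfd1, Psat1 (1 of its 2 windows) and Psph. They held 59.0 to 66.7% GC, above the median of 52.7% over all windows, and the motif is itself made of G and C only. Gldc and Gcat had 1 match each, 86 and 76 bases before the start. The E-box CACGTG, which Myc and other factors bind, was found in 1 of the 10 windows, that of Gcat, just after the start. It was found in 7.15% of all windows. TGATGCAA, the core of the amino acid response element, was found in 0 of the 10 windows of these genes and in 0.895% of all windows. A match is a description of the sequence only, and the arrays measured no binding.

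Shmt1 and Shmt2 encode the cytosolic and the mitochondrial serine hydroxymethyltransferase, which interconvert serine and glycine. Shmt1 read -2.52 log2 on MEF, 0.20 log2 on iPS 178B5, -0.20 log2 on iPS 492B4 and 0.25 log2 on ES. The lines were 2.72, 2.32 and 2.77 log2 above MEF, with iPS 492B4 the lowest of them. The rise was 2.60 ± 0.25 log2 (SD, n = 3; standard error 0.23, adjusted p = 0.00689), or 6.08-fold, and it was called with any line left out. Shmt2 read -0.49 log2 on MEF, -0.0079 log2 on iPS 178B5, 0.065 log2 on iPS 492B4 and 0.0079 log2 on ES. All 3 lines were above MEF by a similar amount, between 0.48 and 0.55 log2. The mean of 0.51 ± 0.04 log2 (SD, n = 3) had an adjusted p of 0.063 in limma's test (unadjusted p = 0.0169) and a 95% interval, not adjusted for the number of genes, from 0.14 to 0.87 log2, so a rise of 1 log2 lay outside it. With equal array medians the Shmt2 difference was 0.58 log2, which passed the adjusted p threshold but not the fold minimum.

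The difference from MEF was larger for Shmt1 than for Shmt2 by 2.24 log2 in iPS 178B5, 1.77 log2 in iPS 492B4 and 2.28 log2 in ES, with a mean of 2.10 ± 0.28 log2 (SD, n = 3). It had the same sign in 3 of 3 lines. An exact two-sided permutation test of 3 arrays against 1 cannot give a p below 0.25. Probe sets can compress a fold to different degrees, and this was not tested.

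The upstream sequences of both hydroxymethyltransferase genes are set side by side because Shmt1 was called and Shmt2 was not. Capitals again mark CCGCCC on either strand.

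Shmt1, chr11:60811266-60811515, minus strand: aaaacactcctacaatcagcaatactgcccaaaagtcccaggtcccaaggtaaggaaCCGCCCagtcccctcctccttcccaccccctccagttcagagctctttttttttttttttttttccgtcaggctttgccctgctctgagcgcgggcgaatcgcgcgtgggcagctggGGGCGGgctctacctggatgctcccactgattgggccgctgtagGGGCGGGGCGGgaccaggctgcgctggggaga

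Shmt2, chr10:127522445-127522694, minus strand: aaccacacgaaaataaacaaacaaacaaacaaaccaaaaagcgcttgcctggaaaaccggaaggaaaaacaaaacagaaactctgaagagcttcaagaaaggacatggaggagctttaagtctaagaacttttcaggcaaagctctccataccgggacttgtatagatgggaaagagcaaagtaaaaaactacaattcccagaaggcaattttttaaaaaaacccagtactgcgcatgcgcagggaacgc

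The Shmt1 window held 4 matches, 3 of them within 76 bases of the start, and the 2 nearest to it overlap by 1 base. The Shmt2 window held 0 and had a GC content of 42.7%, against 60.7% for Shmt1 and a median of 52.7% over all windows.

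Mthfd1 and Mthfd2 carry out the folate interconversions of the cytosol and the mitochondria. Mthfd1, a cytosolic enzyme with 3 activities that also makes formyl-tetrahydrofolate for purines, read -1.73 log2 on MEF, -0.037 log2 on iPS 178B5, 0.037 log2 on iPS 492B4 and 0.55 log2 on ES. ES was the highest array, and both iPS lines were close to each other between ES and MEF. The rise was 1.92 ± 0.32 log2 (SD, n = 3; standard error 0.28, adjusted p = 0.016), or 3.78-fold. Without iPS 178B5 the difference was 2.03 log2 and was not called (adjusted p = 0.0514). Mthfd2, the mitochondrial dehydrogenase and cyclohydrolase, read -0.042 log2 on MEF, -0.35 log2 on iPS 178B5, 0.24 log2 on iPS 492B4 and 0.042 log2 on ES. MEF lay inside the range of the lines, with iPS 178B5 below it and iPS 492B4 above it. The mean difference was 0.022 ± 0.30 log2 (SD, n = 3; adjusted p = 0.964), with a 95% interval from -0.70 to 0.74 log2.

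The difference from MEF was larger for Mthfd1 than for Mthfd2 by 2.00, 1.49 and 2.20 log2 in iPS 178B5, iPS 492B4 and ES, with a mean of 1.90 ± 0.37 log2 (SD, n = 3). The exact permutation test has the same smallest p of 0.25 here. In both of these paralogue pairs the gene of the cytosolic enzyme was the one called. The pairs leave out the related genes Mthfd1l (0.87 log2) and Mthfd2l (-1.96 log2), neither of them called over the 3 lines.

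The promoters of this pair are shown beside those of Shmt1 and Shmt2, with 1 match to CCGCCC for Mthfd1 and 0 for Mthfd2. Among other genes not called, Psph had 3 matches, Gcsh 2, Psat1 0 and 2 in its 2 windows, and Phgdh and Dld 0. Gldc, Gcat and Amt, which were called, had 1 each. Whether such matches have a part in the rises was not tested.

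Mthfd1, chr12:76254982-76255231, plus strand: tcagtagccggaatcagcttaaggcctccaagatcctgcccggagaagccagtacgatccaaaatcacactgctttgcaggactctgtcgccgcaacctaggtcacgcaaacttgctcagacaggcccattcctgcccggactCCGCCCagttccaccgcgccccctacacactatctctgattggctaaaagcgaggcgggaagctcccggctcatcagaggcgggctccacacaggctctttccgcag

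Mthfd2, chr6:83317605-83317854, minus strand: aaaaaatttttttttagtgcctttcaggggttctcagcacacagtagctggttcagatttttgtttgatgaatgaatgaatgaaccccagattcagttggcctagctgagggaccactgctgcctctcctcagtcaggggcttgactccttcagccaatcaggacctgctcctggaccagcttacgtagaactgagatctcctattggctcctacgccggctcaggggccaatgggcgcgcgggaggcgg

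Serine synthesis begins with Phgdh, phosphoglycerate dehydrogenase. Its value was -0.19 log2 on MEF, 0.19 log2 on iPS 178B5, -0.31 log2 on iPS 492B4 and 0.24 log2 on ES. MEF lay between iPS 492B4, which was lower, and the other lines. The mean difference was 0.23 ± 0.30 log2 (SD, n = 3; adjusted p = 0.589; 95% interval from -0.50 to 0.96 log2). A second probe set is shared with the pseudogene Gm6756 and was not used. Its mean difference was -0.053 log2.

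Psat1, the phosphoserine aminotransferase, read -0.25 log2 on MEF, 0.056 log2 on iPS 178B5, 0.16 log2 on iPS 492B4 and -0.056 log2 on ES. Psph, the phosphoserine phosphatase, read -0.22, -0.0020, 0.33 and 0.0020 log2 on the same arrays. For both genes MEF was the lowest array, and the lines were spread over 0.22 and 0.33 log2. The differences were 0.31 ± 0.11 log2 for Psat1 (adjusted p = 0.24) and 0.33 ± 0.19 log2 for Psph (adjusted p = 0.302), each over 3 lines. Their 95% intervals, from -0.12 to 0.73 log2 and from -0.20 to 0.86 log2, leave out a rise of 1 log2. On the scale of the reference genes Phgdh, Psat1 and Mthfd2 stood at -0.078, -0.0019 and -0.29 log2, so the sign of these 3 small differences depended on the scaling.

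In the fit with MEF, iPS and ES as separate groups, the same 4 genes rose in iPS against MEF, where 9.94% of all genes were called higher, and in ES against MEF, where 9.14% were. Both comparisons share the MEF array. Gldc stood at 4.98 log2 in iPS and 5.11 log2 in ES, Shmt1 at 2.52 and 2.77 log2, Mthfd1 at 1.73 and 2.29 log2, and Gcat at 1.34 and 1.53 log2. The call of Gcat in iPS was lost with reference centring, where its difference was 0.997 log2, just under the fold minimum.

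Between the iPS lines and ES 0 of the 9 genes, and 0.00% of all genes, were called by limma, while 3079 genes, 1 of these 9 among them, had an unadjusted p under 0.05. With equal array medians 44 of all genes were called and with reference centring 146, and 0 of the 9 in either. The gene with an unadjusted p under 0.05 was Mthfd1, at -0.55 log2 in iPS minus ES (standard error 0.14, adjusted p = 0.24, 95% interval from -0.94 to -0.16 log2), with -0.59 log2 for iPS 178B5 and -0.52 log2 for iPS 492B4. Gldc differed by -0.13 log2 (95% interval from -0.52 to 0.27 log2) and Gcat by -0.20 log2 (from -0.58 to 0.19 log2), so differences of 1 log2 lay outside the intervals for these genes. The interval of Phgdh, from -1.01 to 0.41 log2, did not leave out 1 log2. Strain also differed between ES and the iPS lines. Markers of other cell types differed by value. Calls in iPS minus ES cannot single out any marker, since 0.00% of all genes were called. All 8 primitive endoderm markers were higher in iPS than in ES by value, with a median of 1.87 log2. The 8 primitive endoderm markers had a median of 1.65 log2 above MEF in iPS 178B5, 0.92 log2 in iPS 492B4 and -0.12 log2 in ES, and all 10 fibroblast markers were lower in iPS than in ES by value. The part of these cells in the differences was not tested.

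**Figure D3:**
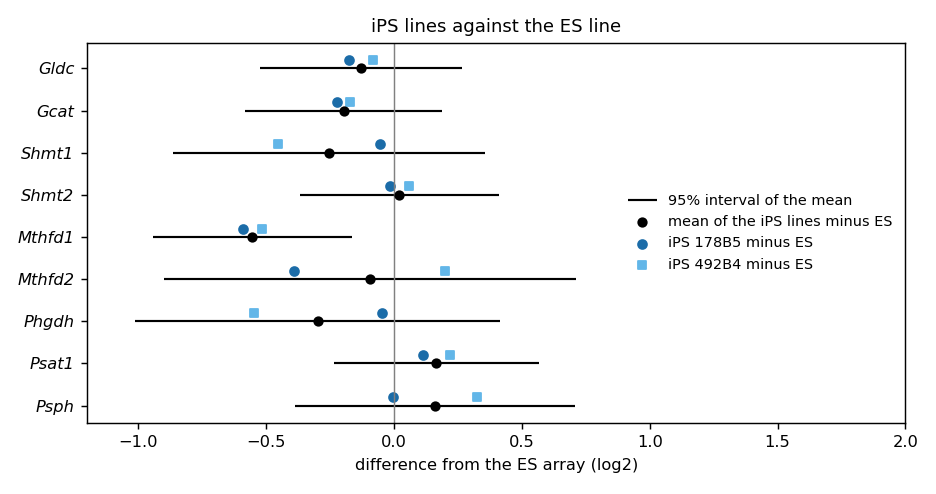
Difference of the iPS lines from the ES array (log2) for the 9 measured genes, with black points for the mean of both iPS lines, black lines for its 95% interval from the 3-group limma fit, and coloured points for each iPS line. All intervals but that of Mthfd1 include 0, and the point for Mthfd1 lies at -0.55 log2.

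Each iPS line had 1 array, so the lines can be set against each other by value alone. None of the 9 genes differed by 1 log2 between them, and 0.612% of all genes did. The root mean square difference was 0.316 log2 over the 9 genes and 0.276 log2 over all genes. Mthfd2 was 0.59 log2 higher and Phgdh 0.50 log2 lower in iPS 492B4 than in iPS 178B5, and Gldc, Gcat, Shmt2 and Mthfd1 differed by less than 0.1 log2.

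The other genes of the pathway were counted from 6 lists of 81 entries, 73 of them measured. In the same fit 7.90% of all genes were called higher and 9.71% lower, the share beside which each list count stands. That share moves with the setting too: 3512 of all genes were called in this fit and 1357 without iPS 178B5. With reference centring 1131 were called higher and 3137 lower. Of 19 measured genes of the folate and methionine cycle 2 rose and 1 fell, with a median of 0.23 log2 that was -0.075 log2 with reference centring and 0.033 log2 without iPS 492B4. Fpgs, which adds the glutamate tail that keeps folate in the cell, rose by 1.94 log2 (adjusted p = 0.00904), and Mtrr, which reactivates methionine synthase, by 1.37 log2 (adjusted p = 0.0227). The call of Mtrr was lost without iPS 178B5 (adjusted p = 0.0834). Aldh1l2, the mitochondrial enzyme that oxidises formyl-tetrahydrofolate to carbon dioxide, fell by 3.02 log2 (adjusted p = 0.00518), with -3.15 log2 in iPS 178B5, -2.98 log2 in iPS 492B4 and -2.92 log2 in ES. It was low in all 3 lines and called with any of them left out. Chosen after their values were seen, Mthfd1l, the mitochondrial formyl-tetrahydrofolate synthetase, stood at 0.87 log2 (adjusted p = 0.0374), which is less than the 1 log2 required, and the folate receptor gene Folr1 at 2.60 log2 (adjusted p = 0.0538). In the 3-group fit Folr1 was called against MEF both in iPS (2.20 log2) and in ES (3.41 log2). There Mthfd1l was called in ES (1.06 log2) but not in iPS (0.77 log2). Without ES 3 genes of the list were higher and 3 lower, and with reference centring 3 were higher and 2 lower.

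Among 18 genes that use or give rise to glycine and serine 2 rose and 3 fell, beside 7.90% and 9.71% of all genes. Their median was -0.044 log2 (0.030 log2 with equal array medians, and -0.35 log2 with reference centring, where 4 fell). Pipox, a peroxisomal oxidase of sarcosine and pipecolate, rose by 4.61 ± 0.22 log2 (SD, n = 3; adjusted p = 0.00479), while Sardh, the mitochondrial sarcosine dehydrogenase, fell by 2.16 log2 (adjusted p = 0.00878). Both oxidise sarcosine to glycine, and they moved in opposite directions in 3 of 3 lines. Cbs, which joins serine to homocysteine, rose by 1.94 log2 (adjusted p = 0.0187). Gamt, the last enzyme of creatine synthesis, fell by 2.60 log2 (adjusted p = 0.00495), and Srr, the serine racemase, by 1.57 log2 (adjusted p = 0.0213). With iPS 178B5 left out the call of Srr was lost (adjusted p = 0.0796).

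**Figure D4:**
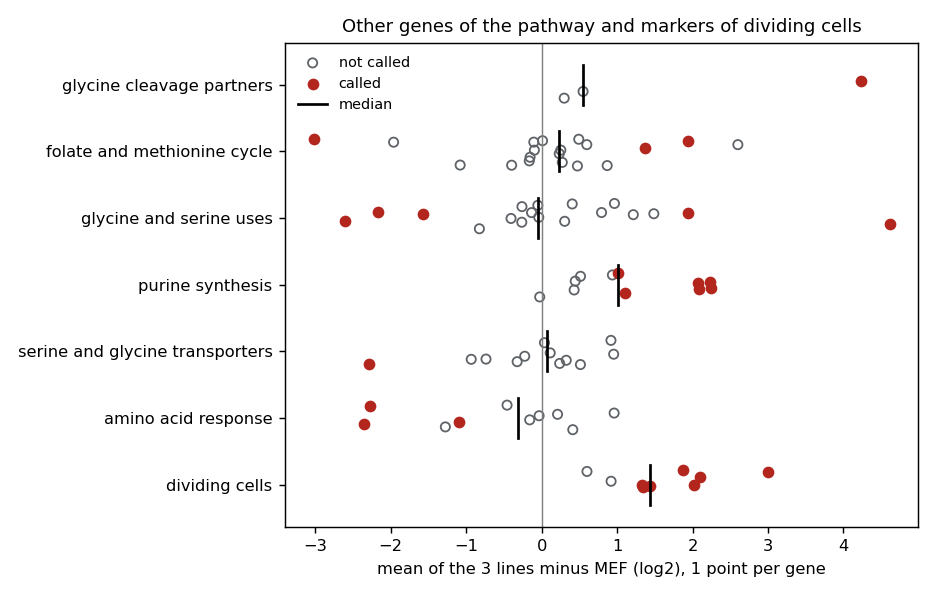
Mean difference between the 3 pluripotent lines and MEF (log2, horizontal axis) for each measured gene of 6 pathway lists and of a list of dividing-cell markers, with red points for genes called, open points for genes not called and black bars for the list median; vertical scatter within a list carries no value. Purine synthesis and dividing-cell markers have medians of 1.01 and 1.44 log2, and the other lists have genes on both sides of 0 except the 3 glycine cleavage partners.

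Purine synthesis takes up both glycine and formyl groups. Of 11 measured genes 6 rose and 0 fell, beside 7.90% and 9.71% of all genes, with a median of 1.01 log2. Pfas rose by 2.24 log2 (adjusted p = 0.014), Ppat, the committing amidotransferase, by 2.23 log2 (adjusted p = 0.0111), Gart, which uses both glycine and formyl-tetrahydrofolate, by 2.09 log2 (adjusted p = 0.00548) and Prps1 by 2.07 log2 (adjusted p = 0.0105). The count was 3 without iPS 178B5, where Pfas was not called (adjusted p = 0.0525), and 4 with reference centring. Of 9 dividing-cell markers 7 rose, with a median of 1.44 log2 (1.49 log2 in iPS 178B5, 1.68 log2 in iPS 492B4 and 1.32 log2 in ES), and 3 rose without iPS 178B5. These markers thus moved with the purine genes and with the 4 enzymes that rose, and their part in those rises was not tested.

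Of 12 serine and glycine transporter genes 1 was called, beside 17.6% of all genes (7.90% higher and 9.71% lower). Slc6a9, the glycine transporter GlyT1, fell by 2.29 log2 (adjusted p = 0.00594), with -2.37 log2 in both iPS lines and -2.12 log2 in ES. The list median was 0.076 log2, -0.029 log2 without iPS 178B5, 0.18 log2 without iPS 492B4, and -0.23 log2 with reference centring, where 2 genes were lower. With equal array medians 1 gene was higher and 1 lower. The amino acid response list, genes of the Atf4 pathway that is known to drive serine synthesis genes under amino acid shortage, had 0 of 10 higher and 3 lower, with a median of -0.31 log2 (-0.62 log2 with reference centring). Atf5 fell by 2.36 log2 (adjusted p = 0.0111), the stress protein gene Nupr1 by 2.27 log2 (adjusted p = 0.0108) and Chac1, which degrades glutathione, by 1.10 log2 (adjusted p = 0.0485). With equal array medians, and without iPS 492B4, 1 gene of the list was higher and 2 lower. Without iPS 178B5 1 gene was lower, and Atf5 was not called (adjusted p = 0.051). Chac1 was not called in 4 of the alternatives, with either iPS line left out, with equal array medians (adjusted p = 0.0607) or with robust moderation (adjusted p = 0.0503). Atf4 itself stood at -0.034 log2 and Asns, its target for asparagine synthesis, at 0.41 log2 (adjusted p = 0.244), both named after their values were seen.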

How the data were processed

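Per the submitters' processing notes the authors processed the Affymetrix arrays with GCRMA (background correction, normalization between arrays, summary per probe set). The sources used here do not give its version. For the arrays the authors deposited 1 table of log2 values (base taken as 2) for 28853 probe sets, each centred to a median of 0 over the 4 arrays (within 1e-06). Of them 21789 had 1 symbol, 1621 several and 5443 none. Probe sets with 1 symbol were averaged per gene, giving 19938 genes, 999 of them with several probe sets.

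Linear models with empirical Bayes moderation were fitted in limma 3.58.1 (R 4.3.3). The code was run on simulated data in which all 4 arrays had the spread of the lines. That run cannot test whether the MEF array varies like the lines. The fit of 3 lines against MEF had 2 residual degrees of freedom. The fit of MEF, iPS and ES had 1, from both iPS lines, and assumes that the lone arrays vary like them. Cell lines stood as replicates, so that a p-value reflects only how far these samples vary, which may be technical. Arrays carry no read depth, and their number limits the precision. The members and lists were chosen with earlier results of these data known. Named genes were all members and, per other list, the called genes with the largest differences (at most 4, or 6 for the folate and the glycine and serine lists). A planned search for genes most like Tdh was run for Gldc. Alternatives were array centring, the rule for several probe sets, robust moderation, no fold minimum and leaving out each line. Upstream sequences of 9 genes matched by symbol in RefSeq (GRCm38.p6).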

Additional observations from a re-analysis of the deposited data

How the results depend on the processing

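The number of members called higher in the pluripotent lines was 4 in each setting that kept all lines, and between 2 and 4 with a line left out, the lowest without iPS 178B5. The number of genes called in all ranged from 1357 to 4216 with a line left out, the fewest without iPS 178B5. The median over the members was 0.58 log2 with each array centred on its median and 0.20 log2 with reference centring. Without the fold minimum 6627 genes were called in iPS minus MEF. In iPS minus ES 44 genes were called with array medians set equal and 146 with reference centring, against 0 as deposited, and 0 of the 9 members in any setting. The cause was not tested. Differences that changed sign were all small and uncalled. With reference centring, against MEF, Mthfd2 was -0.29 log2 over the 3 lines and -0.16 log2 in ES, Phgdh -0.078 log2 over the lines and -0.21 log2 in iPS, Psat1 -0.0019 log2 over the lines and -0.052 log2 in ES, and Psph -0.025 log2 in ES, and Shmt2 was -0.070 log2 in iPS minus ES. Mthfd2 was also -0.11 log2 without iPS 492B4, -0.0093 log2 without ES and 0.19 log2 without iPS 178B5, and 0.078 log2 in iPS minus MEF with equal array medians, where it had been -0.0093 log2. A filter on dim probe sets was not run, since centred values give no level, and leaving out an iPS line from the 3-group fit leaves no residual degree of freedom. No paired analysis was possible because the labels give no replicate numbers that groups share.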

Other observations

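Because Tdh had no probe set of its own, the search for genes of like pattern was run for Gldc, a choice made after the values were seen. Likeness was the root mean square difference between the 3 differences from MEF. The nearest of 19938 genes was Esrrb, a nuclear receptor of the pluripotency network and one of the pluripotency markers used here, at 0.080 log2, with 5.06 log2 in iPS 178B5, 5.09 log2 in iPS 492B4 and 5.15 log2 in ES. Rimklb (0.15 log2), Zfp640 (0.24 log2), Tdrd12 (0.27 log2), a germline gene of the piRNA pathway, and Triml2 (0.27 log2) followed. The measure rests on 3 values that share the MEF array, and it says nothing of shared control.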
